A study of Mus musculus with 2 samples.

Results

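The genes described here are 10 components of Wnt and R-spondin signalling, a pathway known for its part in the zonation of the adrenal cortex: the ligands Wnt4, Rspo1 and Rspo3, the R-spondin receptors Lgr4 and Lgr5, the ubiquitin ligases Znrf3 and Rnf43, and, inside the cell, Ctnnb1, Axin2 and Lef1. They were chosen by name, as the rows of the gene tables whose Ensembl identifiers map to these symbols, and all 10 were found among 43346 Ensembl genes in each table. Polyadenylated RNA came from adrenal gland tissue of 1 adult C57BL/6J mouse, a female 10 weeks of age, with no treatment named. It was sequenced as 2 libraries, replicate 2 and replicate 1, which are technical replicates of 1 biological sample, with replicate 2 made later, in 2015. Values set side by side are therefore repeated measurements of 1 sample, and the spread between animals is not measured.

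In canonical Wnt signalling, a secreted Wnt protein binds Frizzled and Lrp receptors at the cell surface, which halts the breakdown of β-catenin. β-Catenin then enters the nucleus and activates genes together with TCF and LEF factors. Znrf3 and Rnf43 remove the Wnt receptors from the membrane, and R-spondins, bound to Lgr receptors, clear these ligases and so raise the response to Wnt. In the mouse adrenal, R-spondins come from the capsule, with Rspo3 as the form known to maintain the outer cortex, Wnt4 is made in the zona glomerulosa below it, and β-catenin activity falls towards the inner zona fasciculata. Loss of Znrf3 in the mouse cortex is known to cause hyperplasia.

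The members differ widely in base composition, which matters below because the library difference moved with it. The first coding bases of 6 members are shown for that reason, read from GENCODE M21 transcripts on GRCm38, 5′ to 3′ on the coding strand, with G and C in capitals. Wnt4-201 begins in exon 1 at chr4:137277680-137277756 (plus strand, 67.5% GC), Rspo1-201 in exon 2 at chr4:124991333-124991422 (plus, 65.6%) and Rspo3-201 in exon 1 at chr10:29535239-29535328 (minus, 43.3%). Lgr4-201 begins in exon 1 at chr2:109918121-109918210 (plus, 77.8%), Axin2-201 in exon 2 at chr11:108923288-108923377 (plus, 62.2%) and Lef1-201 in exon 1 at chr3:131111472-131111561 (plus, 65.6%).
Wnt4-201: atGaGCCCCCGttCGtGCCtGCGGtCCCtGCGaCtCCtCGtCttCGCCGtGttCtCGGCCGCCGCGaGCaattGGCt
Rspo1-201: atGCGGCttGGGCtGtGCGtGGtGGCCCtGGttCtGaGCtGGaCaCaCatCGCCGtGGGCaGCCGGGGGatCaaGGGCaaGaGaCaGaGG
Rspo3-201: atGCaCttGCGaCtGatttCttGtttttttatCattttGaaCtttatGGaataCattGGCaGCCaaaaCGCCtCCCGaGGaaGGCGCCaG
Lgr4-201: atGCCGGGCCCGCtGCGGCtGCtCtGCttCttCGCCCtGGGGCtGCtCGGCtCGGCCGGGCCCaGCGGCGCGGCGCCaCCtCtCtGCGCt
Axin2-201: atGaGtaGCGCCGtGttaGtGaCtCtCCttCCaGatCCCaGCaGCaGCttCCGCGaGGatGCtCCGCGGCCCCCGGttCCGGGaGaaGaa
Lef1-201: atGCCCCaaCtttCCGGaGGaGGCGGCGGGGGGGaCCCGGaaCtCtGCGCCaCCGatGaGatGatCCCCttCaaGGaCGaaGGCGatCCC
The Rspo3 start is the only 1 of these 6 with fewer G and C than A and T. A start need not match its whole transcripts: in Lgr4 it has 77.8% GC against 46.3%, in Rspo3 43.3% against 44.5%. The comparisons below on GC content of genes use whole transcripts. Over whole transcripts, the mean GC content of the members ran from 44.5% for Rspo3, 46.3% for Lgr4 and 47.5% for Lgr5 through 49.5% for Lef1, 50.8% for Ctnnb1 and 52.0% for Znrf3 to 55.3% for Rnf43, 55.9% for Wnt4 and for Axin2, and 60.3% for Rspo1.

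The 2 libraries differed in depth, in mitochondrial content and in base composition. Rounded expected counts, the estimated fragments per gene, summed to 17376660 in replicate 2 and 28267651 in replicate 1. The 37 genes of the mitochondrial genome took 10.6% of counts in replicate 2 and 40.1% in replicate 1, and together with 15 nuclear copies they took 38.4% and 82.5% of the TPM, the length-scaled transcript abundance. Deposited TPM values sum to a fixed total, so every nuclear gene of replicate 1 is scaled down by that share; levels are therefore also given as nuclear TPM, rescaled without those genes and copies, a choice made after seeing the data. Adrenal markers were present in both libraries: the 5 zona fasciculata markers summed to 11630 TPM in replicate 2 and 2912 TPM in replicate 1, and 5 kidney markers to 0.38 and 0.15 TPM. Relative to all tested genes scaled by TMM (trimmed mean of M values), 36.4% of 14358 genes were called higher in replicate 2 and 27.8% lower, where a call needs at least a 2-fold ratio and an adjusted p under 0.05 (exact binomial test, Benjamini-Hochberg over all tested genes). These calls compare the libraries, not conditions, and their p-values cover counting error only. The median log2 ratio of replicate 2 to replicate 1 ran from -1.91 in the tenth of genes with the lowest GC content to 4.42 in the tenth with the highest. After this trend on GC content was removed, 13.4% of 14274 genes were called higher and 12.4% lower.

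All 10 members had reads in both libraries. By deposited TPM, 10 reached 1 TPM in replicate 2 and 8 in replicate 1, where Rspo1 and Rnf43 fell short. By nuclear TPM all 10 reached that level in both. Deposited TPM was higher in replicate 2 for all 10 members, whereas nuclear TPM was higher in replicate 2 for 5 and in replicate 1 for the other 5. Summed over the members, nuclear TPM came to 889.6 in replicate 2 and 990.1 in replicate 1. On scaled counts 3 members were called higher in replicate 2 (Wnt4, Rspo1 and Axin2), 3 lower (Rspo3, Lgr4 and Lgr5) and 4 were not called, a split near that of all genes. With the total count as the scale the split was 6 higher and 0 lower. With the total over nuclear genes other than the copies it was 4 and 1. Against TMM these scales raise the log2 ratio of every gene, by 1.14 and 0.28. In either direction they called 8336 and 8773 of the 14358 tested genes. The median log2 ratio of the members was 0.07, beside 0.10 over all tested genes. With the GC trend removed 0 were called higher and 3 lower (Rspo1, Znrf3 and Rnf43), beside 13.4% and 12.4% over all tested genes. The median of the members was then -0.65, beside -0.03 over all tested genes.

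**Figure D1:**
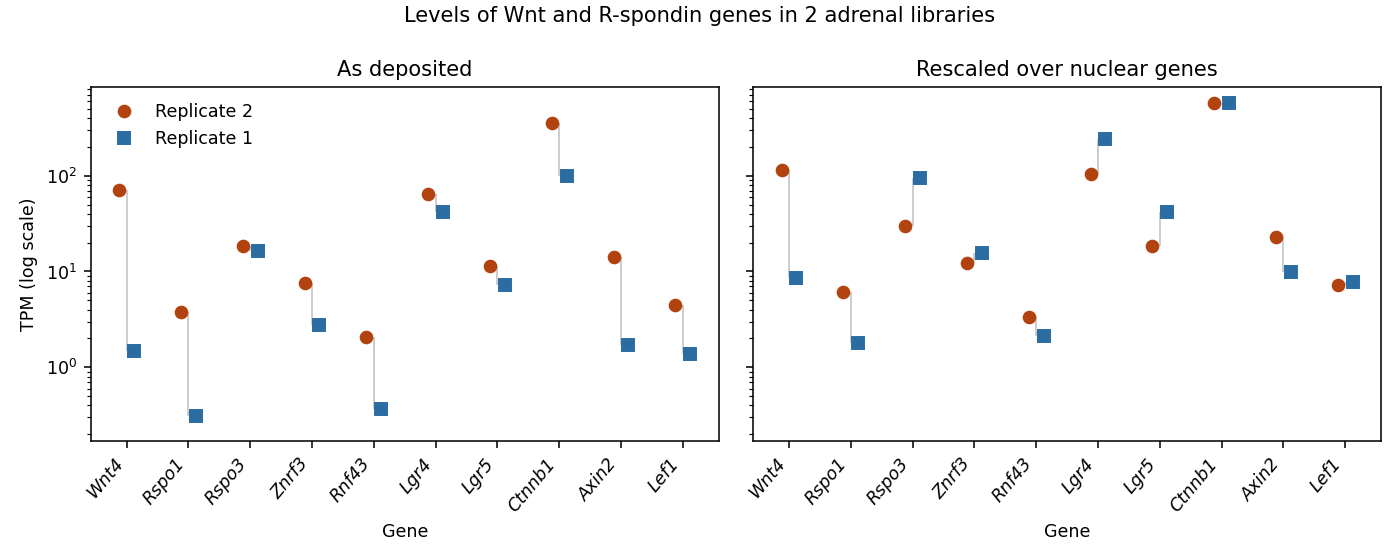
Level of each member in TPM (log axis) in replicate 2 (circles, left of each pair) and replicate 1 (squares, right), as deposited (left panel) and rescaled over nuclear genes without mitochondrial genes and their copies (right panel); a grey line joins the 2 libraries. All 10 deposited values are higher in replicate 2, while in the right panel Ctnnb1 stands at 568.7 and 568.4 TPM and Rspo3, Znrf3, Lgr4, Lgr5 and Lef1 are higher in replicate 1.

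Ctnnb1 led the group in both libraries and the order below it changed. Nuclear TPM averaged 568.5 for Ctnnb1, 173.0 for Lgr4, 62.1 for Wnt4, 61.7 for Rspo3, 29.97 for Lgr5, 16.4 for Axin2, 14.0 for Znrf3, 7.52 for Lef1, 3.91 for Rspo1 and 2.745 for Rnf43. The ranges over the libraries did not overlap between Ctnnb1 and Lgr4, between Znrf3 and Lef1 or between Lef1 and Rspo1. The ranges of all other neighbours in that order overlapped. Of these, Rspo3 exceeded Lgr5 within each library, and the order of the other pairs turned between the libraries. In bulk RNA, fewer cells of a type and less RNA per cell cannot be told apart, which applies to each of these levels. Wnt4 was the member whose place moved most, standing second by deposited TPM in replicate 2 and seventh in replicate 1.

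Wnt4, the Wnt ligand of the zona glomerulosa (chr4:137277489-137299726, plus strand, protein-coding), showed the largest library difference among the members on scaled counts, but not once the GC trend was removed. It had 71.3 TPM in replicate 2 and 1.49 TPM in replicate 1, from 3563 and 198 counts, a mean of 36.4 ± 49.4 TPM (SD, n = 2 technical replicates). As nuclear TPM these levels were 115.7 and 8.52, which placed Wnt4 at rank 1624 and rank 8176 among nuclear genes. On scaled counts the gene was 13.3-fold higher in replicate 2 (95% exact interval 11.55 to 15.45), a log2 ratio of 3.73. Of the genes in its GC class 61.9% had a lower ratio, and without the GC trend its log2 ratio was 0.92 (0.72 to 1.14) and the call ended.

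Among the 19 Wnt ligand genes, the leading ligand changed with the library. Wnt4 made up 64.1% of the summed ligand TPM in replicate 2 and 8.17% in replicate 1. Wnt5a, a ligand best known for β-catenin-independent signalling, made up 17.7% and 73.8%, at 19.7 and 13.45 TPM, and was called lower in replicate 2 with a log2 ratio of -1.23 (-0.76 and not called without the GC trend). Wnt2b, a canonical ligand, made up 12.5% and 16.0%, at 13.9 and 2.91 TPM, with a log2 ratio of 0.41 that was not called, and -3.06 and called lower without the GC trend. Wnt6 had 2.36 and 0.16 TPM from 55 and 10 counts and was called higher, at 1.97, and lower without the GC trend, at -3.58. The mean GC content was 55.9% for Wnt4, 47.6% for Wnt5a and 57.3% for Wnt2b. Wnt1, Wnt3, Wnt3a, Wnt7a, Wnt8a, Wnt8b and Wnt16 had a count of 0 in both libraries.

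Rspo3, the capsular R-spondin (chr10:29452416-29535867, minus strand), was nearly level by deposited TPM and lower in replicate 2 on scaled counts. It had 18.4 TPM in replicate 2 and 16.4 TPM in replicate 1, from 506 and 1199 counts, and 29.8 and 93.6 nuclear TPM. The count ratio was 0.313 (0.281 to 0.347), a log2 ratio of -1.68 and the lowest among the members. It was -0.52 and not called once the GC trend was removed, and 8.90% of the genes in its GC class had a lower ratio. Total-count scaling also ended the call, at -0.54. The 8 markers of capsule and stroma summed to 410.5 nuclear TPM in replicate 2 and 796.0 in replicate 1, but did not move in 1 direction, with 3 called higher, 3 lower and none at 0. Their part in the Rspo3 value was not tested.

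Rspo1, the second R-spondin with enough counts to be tested (chr4:124986430-125009099, plus strand), rested on few counts. It had 3.73 TPM in replicate 2 and 0.31 TPM in replicate 1, from 55 and 17 counts, and was 2.35-fold higher in replicate 2 (1.37 to 4.403, adjusted p = 0.00157, exact binomial test). In replicate 2, 33.3% of its deposited TPM belonged to Rspo1-202, a short processed transcript with 4 counts, while the protein-coding Rspo1-201 stood at 2.49 TPM there and 0.31 TPM in replicate 1. Rspo1 was the most GC-rich member, and the ratio was low for genes of its composition: 6.70% of its GC class had a lower one. Removing the GC trend turned the direction, to a log2 ratio of -3.47 (-4.24 to -2.56), and the gene was called lower. Removing a trend on gene length in its place ended the call, at 0.32. Rspo2 had 2 and 1 counts and Rspo4 had 0 in both libraries.

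Among R-spondin transcripts Rspo3 was the larger part in both libraries, by an amount that differed. It made up 82.9% of summed R-spondin TPM in replicate 2 and 98.1% in replicate 1, and exceeded Rspo1 by 4.93 and 52.8 times. Between the libraries this TPM ratio changed by -3.42 on the log2 scale, and by 2.43 with the GC trend removed. Rspo3 was thus the more abundant in each library, and the size of its lead differed with the library and with the treatment of base composition. Wnt4 exceeded Rspo3 in replicate 2 with a TPM ratio of 3.88 and lay below it in replicate 1 with a ratio of 0.0910.

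Lgr4 and Lgr5, leucine-rich repeat receptors that bind R-spondins, stood in nearly the same proportion in both libraries. Lgr4 (chr2:109917647-110014257, plus strand) had 64.6 TPM in replicate 2 and 42.2 TPM in replicate 1, from 3905 and 6687 counts, and 104.8 and 241.2 nuclear TPM. Lgr5 (chr10:115450311-115587780, minus strand) had 11.5 and 7.23 TPM, from 595 and 1028 counts, and 18.6 and 41.3 nuclear TPM. The TPM ratio of Lgr4 to Lgr5 was 5.63 in replicate 2 and 5.84 in replicate 1, a change of -0.05 in log2 of the TPM ratio. This was the smallest change among the 6 member pairs compared, and it was 0.23 with the GC trend removed.

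Both receptors were called lower in replicate 2. The count ratio was 0.4325 (0.416 to 0.450) for Lgr4 and 0.429 (0.387 to 0.475) for Lgr5. Neither call held with the GC trend removed, at log2 ratios of -0.42 and -0.72, nor with scaling to the total over nuclear genes without copies, at -0.93 and -0.94. Lgr6, the third receptor of the family, had 1.32 TPM in replicate 2 and 0.24 TPM in replicate 1. Lgr4 thus made up 83.5% and 85.0% of the summed TPM of these receptor genes, and Lgr5 14.8% and 14.6%.

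Znrf3 and Rnf43, the membrane ubiquitin ligases that R-spondins counter, were measured at lower levels than Lgr4 and Lgr5. Znrf3 (chr11:5276324-5444847, minus strand) had 7.59 TPM in replicate 2 and 2.73 TPM in replicate 1, from 526 and 520 counts, and 12.3 and 15.6 nuclear TPM. The count ratio was 0.749 (0.662 to 0.847), so Znrf3 was not called. Rnf43 (chr11:87662722-87735539, plus strand) had 2.08 and 0.37 TPM from 91 and 36 counts, with a ratio of 1.86 (1.26 to 2.835, adjusted p = 0.00165, exact binomial test) that missed the fold minimum. The deposited TPM intervals of Rnf43, 2.25 to 5.52 in replicate 2 and 0.443 to 1.34 in replicate 1, lie above these point values, so its level is uncertain beyond the counting error. Other members also had point values outside their intervals: in replicate 2 those of Wnt4 (64.1 to 68.47), Lgr4 (58.5 to 62.6) and Ctnnb1 (323.1 to 337.4) lie below the TPM, and so does that of Ctnnb1 in replicate 1 (95.5 to 99.3).

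Both ligases were called lower in replicate 2 once the GC trend was removed, at log2 ratios of -1.42 (-1.60 to -1.24) for Znrf3 and -1.63 (-2.19 to -1.02) for Rnf43. In their GC classes 6.40% and 18.7% of genes had a lower ratio. When GC content was weighted by the deposited transcript shares, Znrf3 was at -1.09 and still called lower. Rnf43 was then at 0.27 and not called, so its direction depended on how base composition was handled. Znrf3 exceeded Rnf43 in each library, by 3.65 times in replicate 2 and 7.38 times in replicate 1 on TPM, and by 1.925 and 3.25 times on the deposited posterior mean TPM.

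Ctnnb1, which encodes β-catenin (chr9:120929216-120960507, plus strand), was the most abundant member, and on TMM-scaled counts the least changed. It had 350.5 TPM in replicate 2 and 99.4 TPM in replicate 1, from 13974 and 10677 counts. As nuclear TPM these were 568.7 and 568.4, at rank 266 and rank 274 among nuclear genes. The count ratio was 0.969 (0.945 to 0.994), a log2 ratio of -0.05 and not called, which turned to 0.24 with scaling to nuclear genes without copies and was -0.58 without the GC trend. Ulk4, a gene on the opposite strand that overlaps Ctnnb1, had 51 and 5 counts, few beside those of Ctnnb1.

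Axin2, a scaffold of the β-catenin destruction complex and a widely used target gene of the pathway (chr11:108920349-108950783, plus strand), was called higher in replicate 2. It had 14.2 TPM in replicate 2 and 1.71 TPM in replicate 1, from 612 and 125 counts, and 23.0 and 9.775 nuclear TPM. The ratio was 3.61 (2.99 to 4.43), and 19.9% of its GC class had a lower one. Its log2 ratio was 1.85, and -0.98 after the trend on GC content was removed, or 0.15 when GC content was weighted by the deposited transcript shares. The direction of the Axin2 difference therefore depended on how base composition was handled.

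Lef1, a nuclear partner of β-catenin and itself a target gene (chr3:131110471-131224356, plus strand), was not called on TMM-scaled counts. It had 4.44 TPM in replicate 2 and 1.37 TPM in replicate 1, from 152 and 99 counts, and 7.20 and 7.83 nuclear TPM. The ratio was 1.135 (0.877 to 1.48, adjusted p = 0.374, exact binomial test), and with the GC trend removed it was 1.08 (0.837 to 1.41). Under total-count scaling its log2 ratio was 1.32 and it was called higher. Relative to Ctnnb1, Lef1 stood at 0.0127 in replicate 2 and 0.0138 in replicate 1 on TPM, while Axin2 stood at 0.0405 and 0.0172. Tcf7, another factor of the same family, led it in both libraries, with 63.5% and 56.1% of the summed TPM of Lef1, Tcf7, Tcf7l1 and Tcf7l2.

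**Figure D2:**
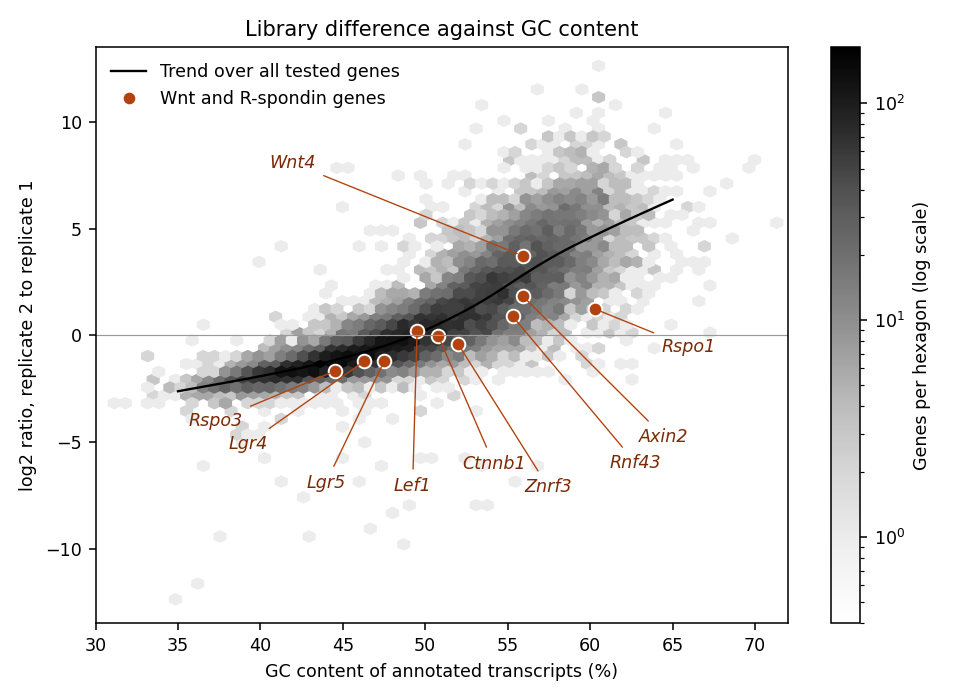
Log2 ratio of replicate 2 to replicate 1 (scaled counts) against the mean GC content of annotated transcripts, for 14274 tested genes (hexagons shaded by the number of genes on a log scale), with the lowess trend (line) and the 10 members (filled circles). Members with the lowest GC content lie lowest, with Rspo3 at -1.68, and Rspo1, at 60.3% GC, lies farthest below the trend.

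**Figure D3:**
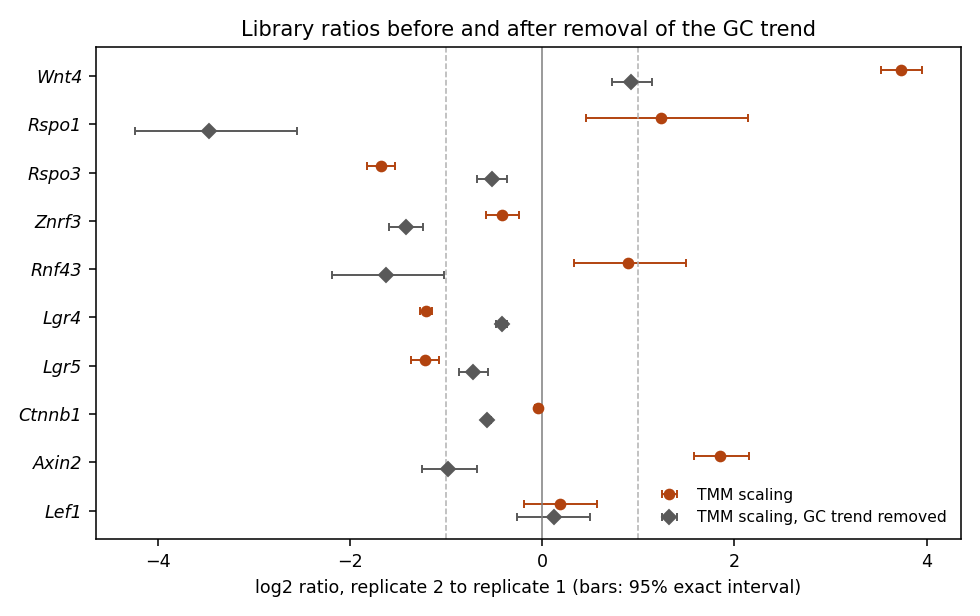
Log2 ratio of replicate 2 to replicate 1 for each member on scaled counts (circles, upper of each pair) and with the GC trend removed (diamonds, lower), with 95% exact intervals for counting error; dashed lines mark the 2-fold minimum. Wnt4 is at 3.73 and 0.92, Rspo1 at 1.23 and -3.47, and Lef1 at 0.18 and 0.12.

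The calls of the members followed base composition as those of all genes did. Of the 6 members above the median GC content of tested genes, 49.8%, 3 were called higher and 0 lower, and of the 4 at or below it 0 were called higher and 3 lower. Among all tested genes the same split gave 5028 higher and 133 lower above the median, and 187 higher and 3808 lower at or below it. With the trend removed 8 of the 10 members had a negative ratio, beside a median of -0.03 over all tested genes. In the same setting 6 of 10 lay nearer to 0 than before. The 3 calls then made, for Rspo1, Znrf3 and Rnf43, were all of genes above the median GC content.

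The transcript tables showed that the difference reached inside some members. In Ctnnb1 the protein-coding Ctnnb1-201 took 22.2% of the gene's TPM in replicate 2 and 0.95% in replicate 1, from 3339.4 and 107.6 counts. Its deposited TPM intervals, 62.6 to 83.0 and 0.328 to 1.64, do not overlap. Ctnnb1-214 took 73.6% and 98.9%. Both transcripts have a coding length of 2343 bases in GENCODE M21, and Ctnnb1-201 carries 194 further bases at its 5′ end with 73.2% GC and 727 others with 39.3% GC. Over its whole length Ctnnb1-201 has 50.3% GC, below the 51.6% of Ctnnb1-214 in that release. As quantified, however, Ctnnb1-214 was 3422 bases long, against 2702 in M21, and only 201 bases shorter than Ctnnb1-201. Its GC content as quantified was not computed, so the order of the pair may differ there.

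By deposited share, Axin2 and Lef1 had another leading transcript in each library. Full-length Axin2-201 took 78.1% of Axin2 TPM in replicate 2 and 15.6% in replicate 1, or 92.1% (95% exact interval 89.7 to 94.2) and 28.85% (21.1 to 37.6) of its counts. Axin2-203, a processed transcript of 4 exons without a coding sequence that covers the 3′ part of the gene, took 10.9% and 84.4% of TPM. The 2250 bases at the 5′ end of Axin2-201 that Axin2-203 lacks have 57.4% GC, and the bases shared by both have 51.5%. Of the Axin2 counts, 5.88% in replicate 2 and 71.15% in replicate 1 were assigned to the short 3′ transcript.

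Lef1-201, which starts with a first exon of 1208 bases at 60.5% GC, took 50.02% of Lef1 TPM in replicate 2 and 0% in replicate 1, from 91.3 and 0 counts. A count share of 0 among the 99 counts of replicate 1 allows up to 3.66% (95% exact interval). Lef1-204, with a first exon of the same length and GC content, took 4.08% and 5.87% of TPM, from 7.2 and 8.5 counts. The long first exon was thus not without assigned counts in replicate 1, though the deposited TPM interval of Lef1-204 there ran from 1.29e-06 to 0.128. Lef1-203, which begins downstream with 24 bases of its own and shares the remaining exons at 46.6% GC, took 44.9% and 94.1%. In replicate 2 the deposited TPM intervals of Lef1-201 (0.770 to 2.664) and Lef1-203 (0.871 to 2.916) overlapped, so the leading transcript there is not settled. The coding length of Lef1-203 is 993 bases, against 1191 for Lef1-201, and the bases Lef1-203 lacks include those printed above for Lef1-201. In the mouse and human protein the N-terminal part is known to bind β-catenin.

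Because the Lef1 transcripts differ in their start, the promoter windows at both starts are shown, from RefSeq on GRCm38.p6, plus strand, 250 bases before to 50 after a RefSeq start, again with G and C in capitals. The upstream window, chr3:131110073-131110372, has 67.3% GC and ends before the GENCODE start of Lef1-201. The downstream window, chr3:131112541-131112840, has 51.7% GC and its RefSeq start lies 6 bases before the GENCODE start of Lef1-203.
Lef1 upstream: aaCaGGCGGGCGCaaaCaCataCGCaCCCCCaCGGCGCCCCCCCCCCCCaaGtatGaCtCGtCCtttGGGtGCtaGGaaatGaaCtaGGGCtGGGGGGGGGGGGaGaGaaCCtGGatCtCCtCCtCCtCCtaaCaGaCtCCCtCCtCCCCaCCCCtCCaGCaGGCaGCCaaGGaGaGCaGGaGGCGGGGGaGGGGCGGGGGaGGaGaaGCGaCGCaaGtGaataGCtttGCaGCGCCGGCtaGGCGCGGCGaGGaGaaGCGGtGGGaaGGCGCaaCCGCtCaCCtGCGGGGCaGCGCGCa
Lef1 downstream: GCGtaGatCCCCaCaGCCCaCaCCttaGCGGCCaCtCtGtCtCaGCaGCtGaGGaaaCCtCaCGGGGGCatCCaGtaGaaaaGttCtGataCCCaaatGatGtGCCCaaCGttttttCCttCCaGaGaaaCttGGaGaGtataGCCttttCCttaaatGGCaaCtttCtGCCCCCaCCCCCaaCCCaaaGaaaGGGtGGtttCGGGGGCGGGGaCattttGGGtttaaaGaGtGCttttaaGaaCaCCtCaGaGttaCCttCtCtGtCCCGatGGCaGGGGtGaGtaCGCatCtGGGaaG
The letters CTTTGA, a form of the core bound by TCF and LEF factors, or the reverse complement TCAAAG, are in neither window. Other forms of the core were not searched. RefSeq windows were found for 7 of the 10 members, 12 windows in all, and 1 of them (8.30%) held these letters, at another Lef1 start, beside 16.0% of 32851 windows over all genes. No windows were matched for Rspo3, Znrf3 and Lgr5.

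In Rnf43 the protein-coding Rnf43-202 took 62.55% of TPM in replicate 2 and 0% in replicate 1, where all 36 counts went to Rnf43-206, a transcript with a retained intron and 48.5% GC. The deposited TPM interval of Rnf43-202 in replicate 2 ran from 9.62e-05 to 1.075, so even there its share is poorly fixed. Znrf3-201 took 58.7% and 72.7% of Znrf3 TPM, and Znrf3-203, with another 5′ end, took 41.3% and 27.3%. At the 5′ end this shift ran the other way by base composition. The 5′ bases found only in Znrf3-201 have 79.6% GC and those only in Znrf3-203 have 45.9%. Each also holds other bases of its own, 2278 at 40.2% GC in Znrf3-201 and 1046 at 46.7% in Znrf3-203. Over whole lengths the transcripts have 50.7% and 51.7% GC. Weighted by deposited shares, the GC content of Znrf3 was 51.15% in replicate 2 and 51.01% in replicate 1. Wnt4 and Rspo3 each had 1 transcript in the tables, and Lgr4-201 and Lgr5-201 led their genes in both libraries.

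**Figure D4:**
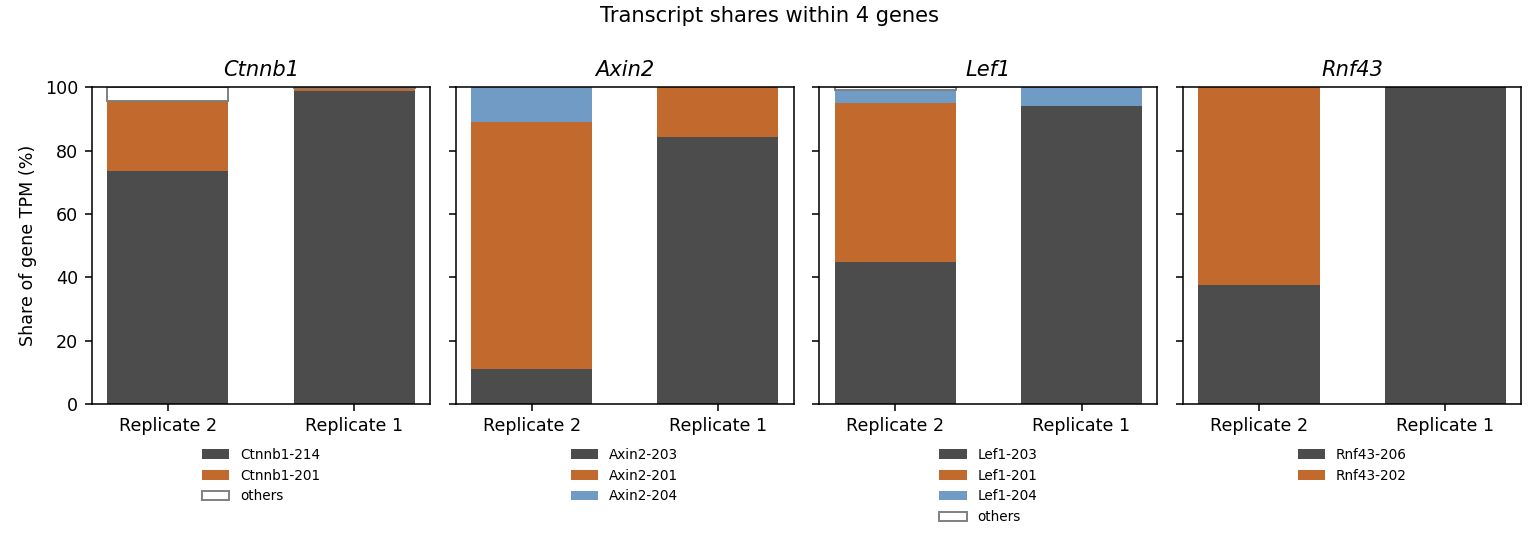
Share of each gene's deposited TPM (percent) by transcript in replicate 2 (left bar) and replicate 1 (right bar) for 4 members; white marks all other transcripts. Ctnnb1-201 takes 22.2% and 0.95%, Axin2-201 78.1% and 15.6%, Lef1-201 50.02% and 0%, and Rnf43-202 62.55% and 0%.

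Shifts of this kind were common. The comparison took 6435 genes with at least 50 counts in each library and at least 2 transcripts with counts, without mitochondrial genes. Of these, 81.7% had a higher GC content in replicate 2 when transcripts were weighted by their deposited shares. The median difference was 0.40 percentage points, and 34.8% had another leading transcript. Among the 6 members compared 4 were higher in replicate 2 and 2 had another leading transcript. The Ctnnb1 difference, -0.25 percentage points, rests on the M21 form of Ctnnb1-214, which is shorter than the form quantified. The weighted GC content of Axin2 was 55.1% in replicate 2 and 51.8% in replicate 1, and that of Lef1 was 49.25% and 47.0%.

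The wider pathway was covered by 9 lists with 95 genes, members included, of which 72 had enough counts to be tested. In replicate 2, 32 were called higher and 13 lower, with a median log2 ratio of 0.40, beside 36.4% and 27.8% called and a median of 0.10 over all tested genes. Total-count scaling raises the log2 ratio of every gene by 1.14 and called 8336 of the 14358 tested genes in either direction. Under that scale the pathway split was 43 higher and 0 lower. With the GC trend removed it was 7 higher and 25 lower and the median was -0.66, beside 13.4% and 12.4% called and a median of -0.03 over all tested genes. All 32 higher calls were among the 47 pathway genes above the median GC content, and all 13 lower calls among the 25 at or below it. Dkk4, Rspo4 and the 7 Wnt genes named above had a count of 0 in both libraries.

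Of the Wnt receptors all 15 were tested, with 5 called higher and 2 lower. With the GC trend removed these counts were 1 and 4. Counts here and in the lists below stand beside 36.4% and 27.8% of all tested genes. The matching shares with the trend removed were 13.4% and 12.4%. Lrp5, a co-receptor of Frizzled proteins, had 48.5 TPM in replicate 2 and 0.31 TPM in replicate 1, from 2883 and 41 counts, and was 51.45-fold higher; its call held with the GC trend removed, at a log2 ratio of 2.52. Its relative Lrp6 had 27.3 and 13.7 TPM and a log2 ratio of -0.90 that was not called, and 0.16 with the trend removed. The Wnt receptor Ryk had 36.55 and 18.8 TPM and was not called. The order of the co-receptors thus turned between the libraries, with Lrp5 above Lrp6 in replicate 2 and below it in replicate 1.

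Among the 8 tested antagonists 3 were called higher and 1 lower, or 2 and 2 with the GC trend removed. Frzb, a secreted Wnt-binding protein, was the most abundant, at 176.9 TPM in replicate 2 and 77.2 TPM in replicate 1, with a log2 ratio of -0.97 that was not called and -1.02 with the GC trend removed, where it was called lower. Dkk3, of the Dickkopf family, had 16.4 and 5.57 TPM, and Sfrp1, of the same family as Frzb, had 10.3 and 4.61 TPM. Neither was called, though without the GC trend Sfrp1 was called lower, at -1.20. For Wnt secretion, Wls, which carries Wnt proteins to the surface, had 44.2 and 33.98 TPM and was called lower, at -1.47, or 0.22 and not called without the trend. Porcn, which acylates Wnt proteins, had 5.71 and 0.53 TPM and was called higher, at 1.98, and lower without the trend, at -1.33.

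Of the 15 cytoplasmic genes 7 were called higher and 4 lower, or 2 and 1 with the GC trend removed. Csnk1a1, a kinase that primes β-catenin for breakdown, had 138.9 TPM in replicate 2 and 103.8 TPM in replicate 1 and was called lower, at a log2 ratio of -1.70. Gsk3a, a kinase of the same complex, had 61.5 and 1.96 TPM and was called higher, at 3.12. Tnks2, a tankyrase that marks axins for breakdown, had 45.3 and 31.8 TPM and was called lower, at -1.40. Csnk1a1 and Tnks2 were not called once the GC trend was removed, and Gsk3a was called lower, at -1.11.

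Of the 13 nuclear factors 7 were called higher and 1 lower, and of 13 tested target genes 6 were called higher and 1 lower. With the GC trend removed the counts were 1 and 7 for the nuclear list and 1 and 6 for the target list. Their median GC content was 54.8% and 54.5%, beside 49.8% over all tested genes. The co-repressor Tle3 had 39.3 TPM in replicate 2 and 7.58 TPM in replicate 1 and was called higher, while Tcf7 (24.7 and 4.92 TPM) and the co-repressor Tle1 (19.1 and 5.76 TPM) were not called. Ccnd1, which encodes cyclin D1, had 75.7 and 21.8 TPM and a log2 ratio of -0.05, and the receptor Tnfrsf19 had 51.3 and 23.0 TPM and a log2 ratio of -0.59. Neither was called. Myc, a transcription factor of growth, had 28.1 and 2.55 TPM and was called higher, at 1.70. Removal of the trend left Ccnd1 and Tnfrsf19 called lower, at -1.53 and -1.13, likewise Tcf7 at -1.63 and Tle1 at -1.48, and Myc was not called.

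**Figure D5:**
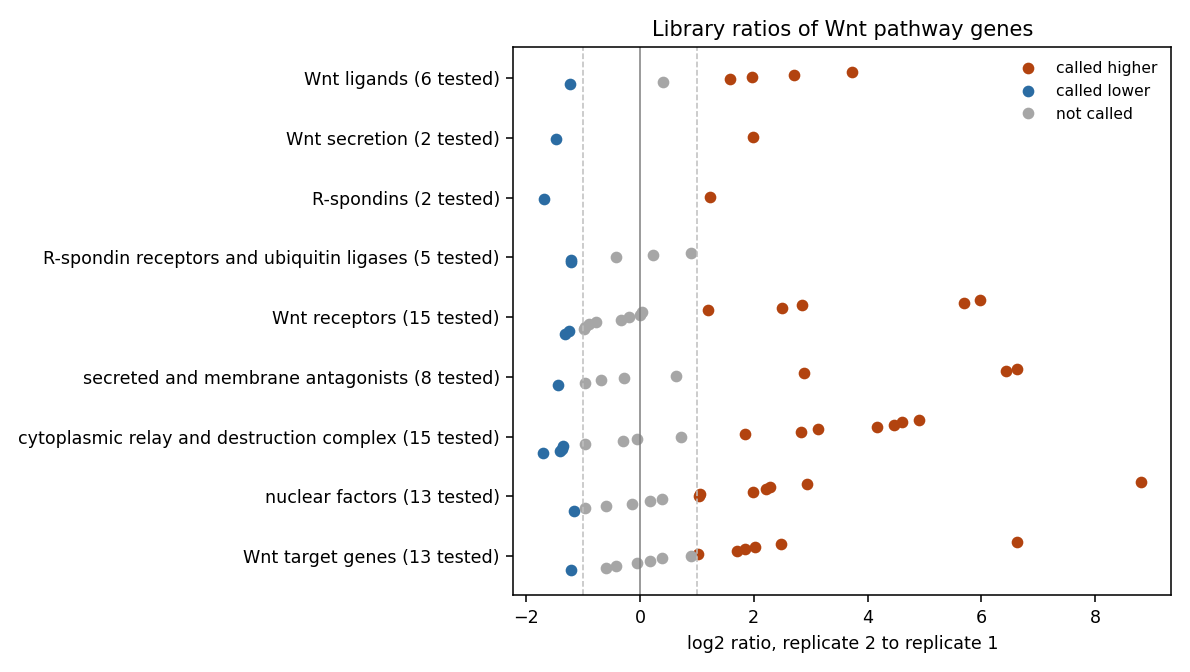
Log2 ratio of replicate 2 to replicate 1 (scaled counts) for tested genes of 9 Wnt pathway lists, members included; each point is a gene, a gene may stand in more than 1 list, colour gives the call and dashed lines mark the 2-fold minimum. The cytoplasmic list holds 7 higher and 4 lower calls and the nuclear list 7 and 1, beside 36.4% and 27.8% of all tested genes.

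Markers of other cells in the gland also moved between the libraries. By nuclear TPM, 5 chromaffin markers summed to 4302.5 in replicate 2 and 231.8 in replicate 1, where Pnmt was at 0. The 4 skeletal muscle markers summed to 459.9 and 47.2. The 5 zona glomerulosa markers summed to 874.6 and 1107, with 1 called higher and 3 lower and none at 0, the 6 endothelial markers to 538.5 and 245.8, and the 5 adipocyte markers to 3911.5 and 2645. The 7 lymphocyte markers stayed at 4.60 and 2.70 and the 5 ovary markers at 4.90 and 3.50. Their part in the member values was not tested.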

How the data were processed

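Both libraries hold polyadenylated RNA from 1 adrenal sample and are technical replicates, each with a gene table and a transcript table. Per the deposited notes, reads were placed on mm10 and quantified against GENCODE M4 from transcriptome alignments; aligner and counting program: not given in the sources used here. Deposited expected counts estimate the fragments of each gene or transcript and carry no scaling. TPM values in the deposited tables, named so per the file headers, are scaled by length and to a fixed sum. FPKM values in the deposited tables served only as an alternative. Posterior mean TPM and its interval bounds, treated as a score, and the percent of each transcript in its gene also come from the deposited tables.

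After rounding, 14358 genes whose counts summed to 20 or more over both libraries were tested. Libraries were scaled with TMM (edgeR 4.0.16, R 4.3.3). Each gene's split of counts was compared with the scaled library sizes by an exact binomial test (two-sided), adjusted by Benjamini-Hochberg over all tested genes, with calls at an adjusted p under 0.05 and a fold of at least 2. Log2 ratios of replicate 2 to replicate 1 used a prior count of 0.5. With 1 library on each side there is no replicate check, and the test compares these libraries only. Intervals are exact (Clopper-Pearson, 95%) and cover counting error. Because 9219 genes were called, the TMM assumption of a mostly unchanged gene set is not met, and each direction holds relative to that scale. GC content is the mean over GENCODE M21 transcripts on GRCm38, available for 14274 tested genes, and its trend was a lowess fit with a span of 0.3 (statsmodels 0.14.6). M21 is a later release than M4, and transcript lengths can differ between them. Symbols were matched through a reference name table. Nuclear copies of mitochondrial genes were matches of 90% identity covering 50% of the length or more (BLAST 2.17.0), and no member had a near-identical copy. Strand use in counting is not given, so reads of overlapping antisense genes cannot be told apart.

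All 10 members, the 3 non-members with the highest mean TPM in each pathway list, and pathway genes at 0 in both libraries were named. The members and lists were chosen with earlier results of these data known. The scripts were tested on simulated data. Alternatives covered scaling (DESeq2 1.42.0 size factors among them), filters, prior count, GC and length trends, edgeR with a common dispersion, and leaving out each library.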

Additional observations from a re-analysis of the deposited data

How the results depend on the processing

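Under total-count scaling, 6 members were called higher and 0 lower, and 0 pathway genes lower. Scaling to nuclear genes left 1 member and 2 pathway genes called lower, and the same without nuclear copies, added after seeing the data, left 1 and 8. With the GC trend removed 0 members were called higher, and 7 pathway genes higher and 25 lower. With GC and length trends removed these counts were 1, 8 and 20, and with isoform-weighted GC 0 members and 3 pathway genes were called higher. Without the fold minimum 5 members and 28 pathway genes were called lower. Of the 14358 tested genes, total-count scaling called 8336 in either direction, nuclear scaling 8390, the same without copies 8773, and the setting without the fold minimum 12592. Of the 14274 with GC content, 3688 were called with the GC trend removed, 3527 with GC and length, and 3316 with isoform-weighted GC. An edgeR exact test with a common dispersion of 0.859, which treats the libraries as replicates of each other, called 0 members and 0 pathway genes in either direction and 0 of all genes, with 988 at an unadjusted p under 0.05, where the exact binomial test called 9219. The log2 ratio of Rspo1 turned to -3.47 (GC), -3.59 (GC and length) and -3.57 (isoform-weighted GC), that of Rnf43 to -1.63 (GC) and -1.47 (GC and length), and that of Axin2 to -0.98 and -0.86. With isoform-weighted GC that of Rnf43 was 0.27 and that of Axin2 was 0.15, and neither was called. Znrf3 turned to 0.72 under total-count and 0.14 under nuclear scaling, Ctnnb1 to 1.09, 0.51, 0.24 (without copies) and 0.01 (no low-count filter), and Lef1 to -0.22 with the length trend removed. Scaling shifted all log2 ratios by 1.14 (total count), 0.56 (nuclear) and 0.28 (nuclear without copies) against TMM. The cause of these changes was not tested. With DESeq2 size factors, posterior mean counts or a prior count of 2, all 10 members kept their direction and their side of the threshold. Leaving out replicate 1 or replicate 2 left 10 or 8 members detected. No paired analysis was possible because the libraries form 1 group.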
